A study of Mus musculus with 8 samples.

Results

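The G1 cyclins and the inhibitors of cyclin-dependent kinases (CDKs) were followed here through 10 genes: the D cyclins Ccnd1, Ccnd2 and Ccnd3, the E cyclins Ccne1 and Ccne2, the CIP/KIP inhibitors Cdkn1a, Cdkn1b and Cdkn1c, and the INK4 inhibitors Cdkn2a and Cdkn2c. Members were the probe sets that the platform annotation of the array gives to these symbols, which came to 23 probe sets for 10 of the 18193 genes with a probe set of 1 symbol. Of these, 20 probe sets and 9 genes passed the signal filter and were tested among 12093 genes. The filter asked that a probe set exceed the array median on 2 or more arrays, and each gene took its value from the brightest of its kept probe sets. Cdkn2a did not pass it on any array.

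RNA came from sciatic nerve of adult mice, measured on 8 1-colour Affymetrix arrays in 4 groups of 2. The groups were the cut nerve of c-Jun KO mice (mutant cut), the cut nerve of WT mice (control cut), the uncut nerve of c-Jun KO mice (mutant uncut) and the uncut nerve of WT mice (control uncut). The nerve had been transected at the sciatic notch, and after 7 days the stump beyond the injury was taken as a 10 mm segment together with the intact nerve of the other side. Each array held pooled nerves of 4 or 6 mice, and the sources used here give neither whether pools of cut and uncut nerve with 1 replicate number came from the same mice, nor the promoter or Cre behind the mutation. In both genotypes the uncut nerve came from an injured animal.

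D cyclins bind CDK4 and CDK6 and E cyclins bind CDK2; these kinases phosphorylate the retinoblastoma protein (RB), which frees E2F factors to switch on the genes of DNA replication. INK4 proteins block CDK4 and CDK6, and CIP/KIP proteins block cyclin-CDK2 complexes, so both families hold cells in G1. In a transected nerve the Schwann cells that lost their axons re-enter the cell cycle, macrophages accumulate and divide, and cyclin D1 is known to be needed for the proliferation of adult Schwann cells after injury but not during development.

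Values are log2 expression values, in which a step of 1 is a doubling of signal. Array medians lay between 6.59 and 6.65, and arrays of 1 group correlated with r of 0.984 to 0.989 over the genes tested. Jun, the mutated gene, read 10.39 and 10.80 in mutant cut, 11.88 and 11.96 in control cut, 9.62 and 9.59 in mutant uncut and 9.58 and 9.70 in control uncut nerve. In cut nerve it was lower in the mutant (log2 difference -1.33, SE 0.14, limma adjusted p = 0.00866), with no overlap between the groups, while the difference in uncut nerve was -0.041. The labels call the tissue Schwann cells, and the 3 Schwann cell markers tested of the 5 listed (S100b, Sox10 and Erbb3) had summed log2 values of 33.3 to 34.6 over all 8 arrays. Markers of other cells were measured in the same segments, as given further on, so every value is of whole nerve. In such samples fewer cells of a type and less RNA per cell cannot be told apart.

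After the cut, the D cyclin Ccnd1 and the E cyclin Ccne2 rose in both genotypes, and the D cyclin Ccnd2 and the CIP/KIP inhibitors Cdkn1b and Cdkn1c fell in both. In mutant nerve 2 members rose and 4 fell (Ccnd2, Cdkn1b, Cdkn1c and Cdkn2c), and 3 did not pass the test (limma, Benjamini-Hochberg adjusted p under 0.05 over all genes). Over all 12093 genes 18.1% were called higher and 17.8% lower in that comparison, against 22.2% and 44.4% of the members. In control nerve 2 members rose and 3 fell (Ccnd2, Cdkn1b and Cdkn1c), with 4 not passing. There the shares were 22.8% higher and 17.5% lower over all genes, against 22.2% and 33.3% of the members. The share of members that rose was thus near that of all genes in both genotypes, and it includes Ccne2, which passed the filter only through its cut arrays and so adds nothing to that count as support. In a fit of all 18193 genes with no filter Ccne2 was called as well (adjusted p = 0.000156 in mutant and 0.000639 in control nerve). The median difference of the 9 members was -0.40 in mutant and -0.39 in control nerve, beside -0.0013 and 0.054 over all genes. Leaving out mutant cut replicate 2, mutant uncut replicate 1 or mutant uncut replicate 2 left 3 members called in mutant nerve.

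**Figure D1:**
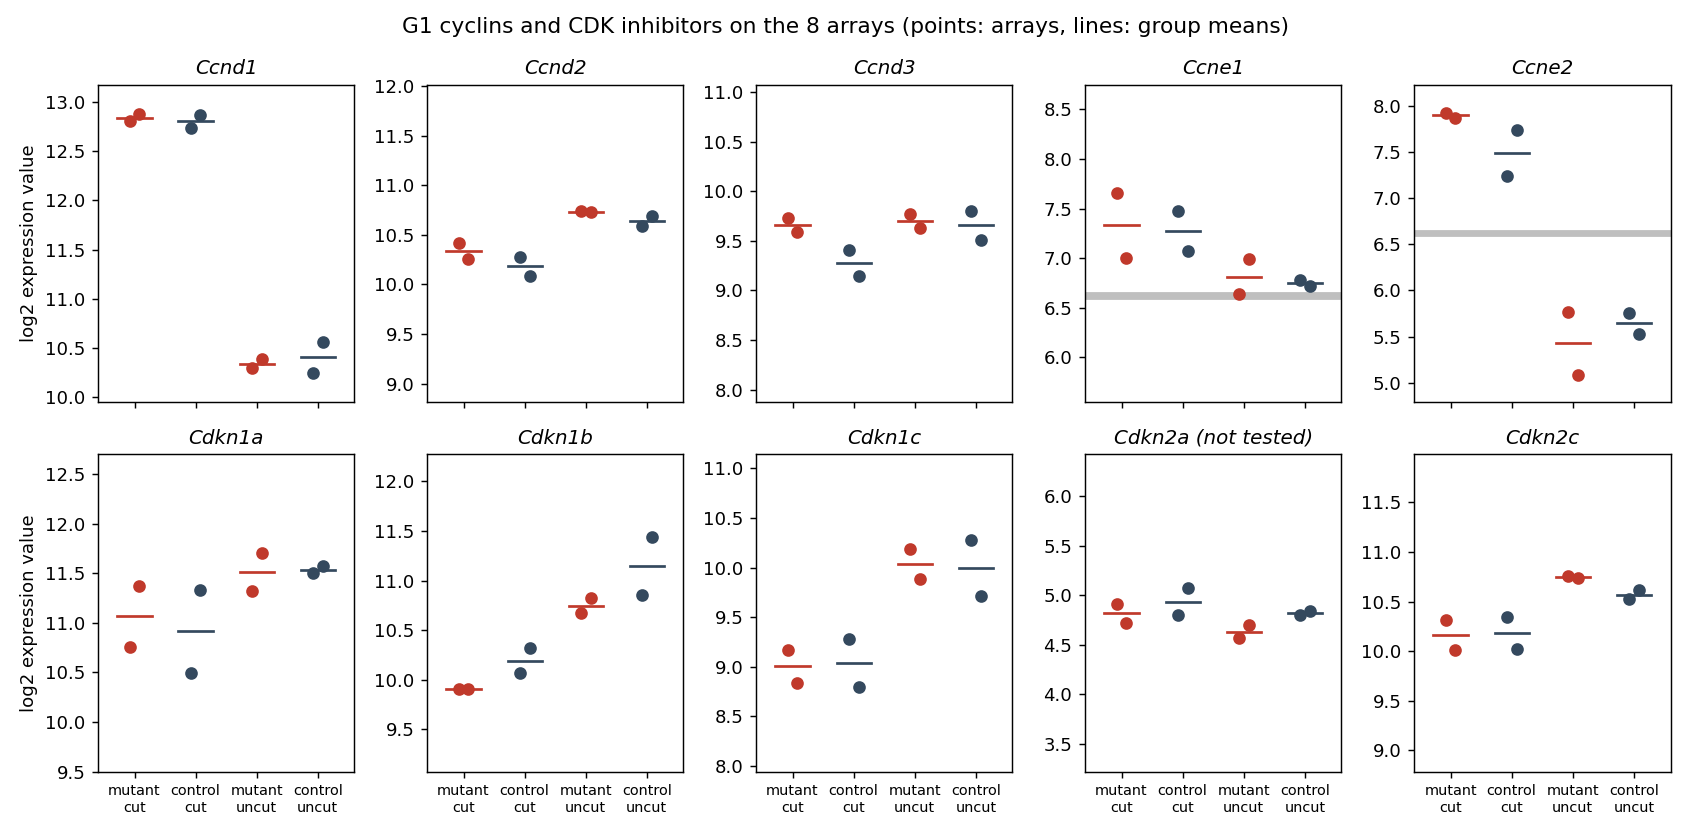
The log2 expression value of each of the 10 genes (y axis) on every array, by group (x axis: mutant cut, control cut, mutant uncut, control uncut). Points are arrays, short lines are group means, and the grey band spans the array medians where it falls in the panel. The y axes differ in position, and those of Ccne2 and Ccnd1 span a little more than the rest. Ccnd1 and Ccne2 stand high in all 4 cut arrays, Cdkn1b and Cdkn1c stand lower there, and Cdkn2a lies near 5 throughout.

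Promoter windows are shown for inhibitors that fell together and for a known target of p53. The RefSeq table (GRCm38.p6, 300 bases a window, 250 before and 50 after an annotated start) held 10 windows for 6 of the 10 members: Ccnd3, Ccne1, Cdkn1a, Cdkn1b, Cdkn2a and Cdkn2c. Printed are the window of Cdkn1b and 1 of 2 windows of Cdkn2c, genes that both fell in mutant nerve, and 1 of 2 windows of Cdkn1a. Capitals mark matches on either strand to the GC box GGGCGG, the CCAAT box CCAAT and the p53 element.
Cdkn1b (chr6:134920151-134920450, plus strand): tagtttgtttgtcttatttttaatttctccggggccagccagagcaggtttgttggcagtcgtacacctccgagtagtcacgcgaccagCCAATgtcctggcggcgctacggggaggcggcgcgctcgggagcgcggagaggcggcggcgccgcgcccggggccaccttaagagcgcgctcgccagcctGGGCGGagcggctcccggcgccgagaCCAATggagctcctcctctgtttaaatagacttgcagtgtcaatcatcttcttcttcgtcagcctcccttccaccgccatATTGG
Cdkn2c (chr4:109666707-109667006, minus strand): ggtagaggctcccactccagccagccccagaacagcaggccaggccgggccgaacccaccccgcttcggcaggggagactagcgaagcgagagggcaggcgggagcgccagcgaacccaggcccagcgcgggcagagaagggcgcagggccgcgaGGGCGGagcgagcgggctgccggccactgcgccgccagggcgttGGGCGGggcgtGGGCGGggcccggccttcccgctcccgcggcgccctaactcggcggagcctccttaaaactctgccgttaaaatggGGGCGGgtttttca
Cdkn1a (chr17:29090729-29091028, plus strand): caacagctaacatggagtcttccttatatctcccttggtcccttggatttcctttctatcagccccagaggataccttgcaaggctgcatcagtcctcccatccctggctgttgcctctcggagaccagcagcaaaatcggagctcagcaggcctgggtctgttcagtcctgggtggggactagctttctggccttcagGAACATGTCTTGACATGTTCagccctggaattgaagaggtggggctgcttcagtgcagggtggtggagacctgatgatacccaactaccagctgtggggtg

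The Cdkn1b window holds 1 GC box and 3 CCAAT boxes, and the printed Cdkn2c window holds 4 GC boxes. The Cdkn2c window not printed holds 0 GC boxes and 1 CCAAT box. A GC box stands in 8 of the 10 member windows and in 35.7% of the 32851 windows of the table, and a CCAAT box in 4 of 10 and in 37.4%. In the printed Cdkn1a window the capitals mark a match to the p53 consensus of 20 bases with at most 1 mismatch. It begins 51 bases before the annotated start of that window. Such a match stands in 0.0883% of all windows and in 1 of the 10 of the members. The other Cdkn1a window, at a separate annotated start, holds 0 p53 elements and 2 GC boxes. The AP-1 letters TGANTCA, to which c-Jun dimers bind, stand in 0 of 10 member windows and 7.81% of all, and the related CRE letters TGACGTCA in 0 of 10 and 1.79%. The E2F letters TTTNNCGC stand in 2 of 10 windows, both of Cdkn2a, and in 5.17% of all, and the FOXO letters GTAAACA in 1 of 10, a Ccnd3 window, and in 3.65%. The GC box, CCAAT box and p53 element were chosen after the windows were seen, no 2 matches overlap in the windows printed, and a match is only a description of the letters.

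Ccnd1 encodes cyclin D1, the D cyclin that mitogens induce at the start of G1. It read 12.81 and 12.87 in mutant cut, 12.74 and 12.87 in control cut, 10.29 and 10.38 in mutant uncut and 10.25 and 10.56 in control uncut nerve. Both genotypes therefore held a high level in cut and a lower one in uncut nerve, and mutant and control arrays overlapped within each state. Cut exceeded uncut nerve 5.67-fold in the mutant (95% interval 4.63 to 6.94, adjusted p = 1.37e-05) and 5.29-fold in the control (4.32 to 6.47, adjusted p = 1.16e-05). The injury difference was larger in the mutant by 0.10 on the log2 scale, with an interval of -0.31 to 0.51 and adjusted p = 0.997. All 3 probe sets of Ccnd1 rose in both genotypes, with log2 differences of 2.50 to 2.88 in mutant and 2.40 to 2.91 in control nerve.

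Ccnd2, the gene of cyclin D2, moved the other way. Its values were 10.41 and 10.26 in mutant cut, 10.28 and 10.08 in control cut, 10.74 and 10.73 in mutant uncut and 10.59 and 10.69 in control uncut nerve. The cut arrays lay below the uncut arrays in both genotypes, by far less than the step of Ccnd1. Ccnd2 fell after the cut in mutant nerve (log2 difference -0.40, SE 0.11, adjusted p = 0.0257) and in control nerve (-0.46, SE 0.11, adjusted p = 0.0129). Of its 7 probe sets 6 were kept; all 6 had negative differences in both genotypes, and 3 passed the test in each. Only the brightest of them passed in both, and 1 that passed in control nerve was kept only through uncut arrays. The call in mutant nerve was lost without mutant cut replicate 2 (-0.32, adjusted p = 0.144), mutant uncut replicate 1 (-0.39, adjusted p = 0.0909) or mutant uncut replicate 2 (-0.40, adjusted p = 0.0893). In control nerve the call needed control cut replicate 2 (-0.36 and adjusted p = 0.0757 when it was left out) and control uncut replicate 2 (-0.41 and adjusted p = 0.0765).

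Ccnd3, the gene of cyclin D3, read 9.73 and 9.59 in mutant cut, 9.41 and 9.14 in control cut, 9.77 and 9.63 in mutant uncut and 9.80 and 9.51 in control uncut nerve. Only the control cut arrays stood apart, at the low end. The difference after the cut was -0.041 in mutant nerve (adjusted p = 0.848) and -0.38 in control nerve (SE 0.14, adjusted p = 0.0673), so neither passed. Its difference between the genotypes in cut nerve was the 1 member difference with an unadjusted p under 0.05 there, at 0.38 (SE 0.14, 95% interval 0.051 to 0.71, unadjusted p = 0.0289), and after adjustment over all genes it missed the threshold (adjusted p = 0.474). Over the 3 probe sets of Ccnd3 that difference ran between -0.0064 and 0.38. In this fit Ccnd1 rose after the cut, Ccnd2 fell and Ccnd3 did not pass.

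**Figure D2:**
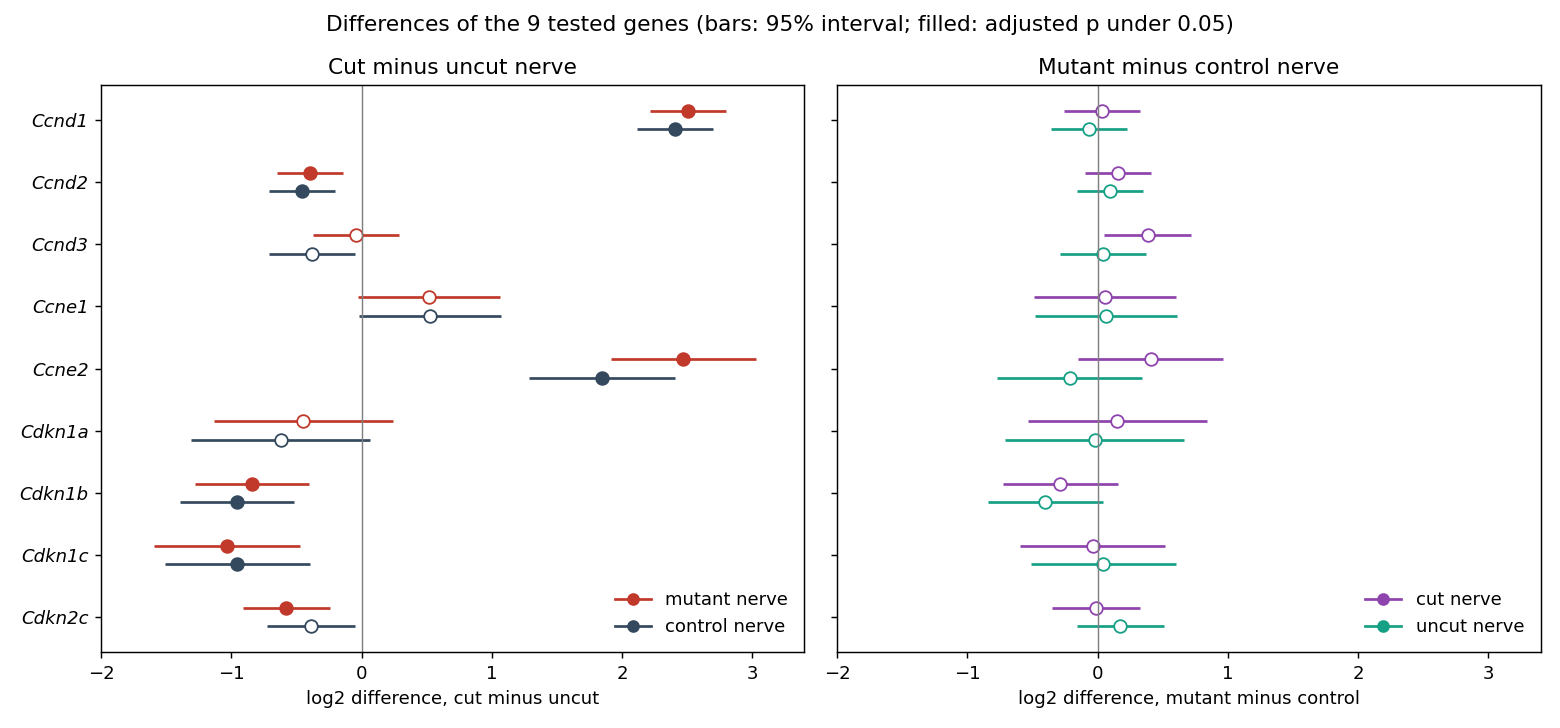
Log2 differences of the 9 tested genes (rows) with 95% intervals (bars), cut minus uncut on the left for mutant and control nerve, and mutant minus control on the right for cut and uncut nerve; filled points passed an adjusted p of 0.05. Ccnd1 and Ccne2 lie well to the right of 0 in the left panel in both genotypes, and no point is filled in the right panel.

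Ccne2, the gene of cyclin E2, which activates CDK2 at the entry into S phase, read 7.93 and 7.87 in mutant cut, 7.24 and 7.74 in control cut, 5.76 and 5.09 in mutant uncut and 5.76 and 5.53 in control uncut nerve. All 4 uncut values lay below the median of their array, so the gene passed the filter only through its cut arrays. The log2 difference after the cut was 2.47 in mutant nerve (SE 0.24, adjusted p = 0.000242) and 1.85 in control nerve (SE 0.24, adjusted p = 0.000837), set against dim uncut values, so no fold is given. In cut nerve both mutant arrays lay above both control arrays, by 0.41 on average (interval -0.15 to 0.96, adjusted p = 0.785). The injury difference was larger in the mutant by 0.62 (SE 0.34, interval -0.17 to 1.41), which did not pass the test either (adjusted p = 0.956).

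Ccne1, the gene of cyclin E1, has 2 probe sets that gave different calls. The brighter read 7.66 and 7.01 in mutant cut, 7.47 and 7.08 in control cut, 6.63 and 6.99 in mutant uncut and 6.78 and 6.72 in control uncut nerve. Its cut arrays lay above the uncut arrays of the same genotype, by 0.52 in mutant (adjusted p = 0.123) and 0.53 in control nerve (adjusted p = 0.11), and neither difference passed. The dimmer probe set read 7.36 and 7.44 in mutant cut, 7.30 and 6.87 in control cut, 6.34 and 6.58 in mutant uncut and 6.58 and 6.39 in control uncut nerve. In a fit over all 20943 kept probe sets with 1 symbol its difference was 0.94 in mutant nerve (adjusted p = 0.00417) and 0.60 in control nerve (adjusted p = 0.0236), but all 4 uncut values lay below the array medians, so this probe set was kept only through its cut arrays. Ccne1 passed in control nerve with only the 4 arrays compared (limma adjusted p = 0.0393). With the mean of both probe sets it passed in mutant nerve (0.73, adjusted p = 0.0146) and in control nerve (0.56, adjusted p = 0.0356). That mean takes in the probe set kept only through its cut arrays, so it adds nothing as support. Without mutant cut replicate 2 the difference in mutant nerve was 0.85. This was the lower of the mutant cut arrays, so a larger rise without it was fixed in advance, and 1 array was left in the group.

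**Figure D3:**
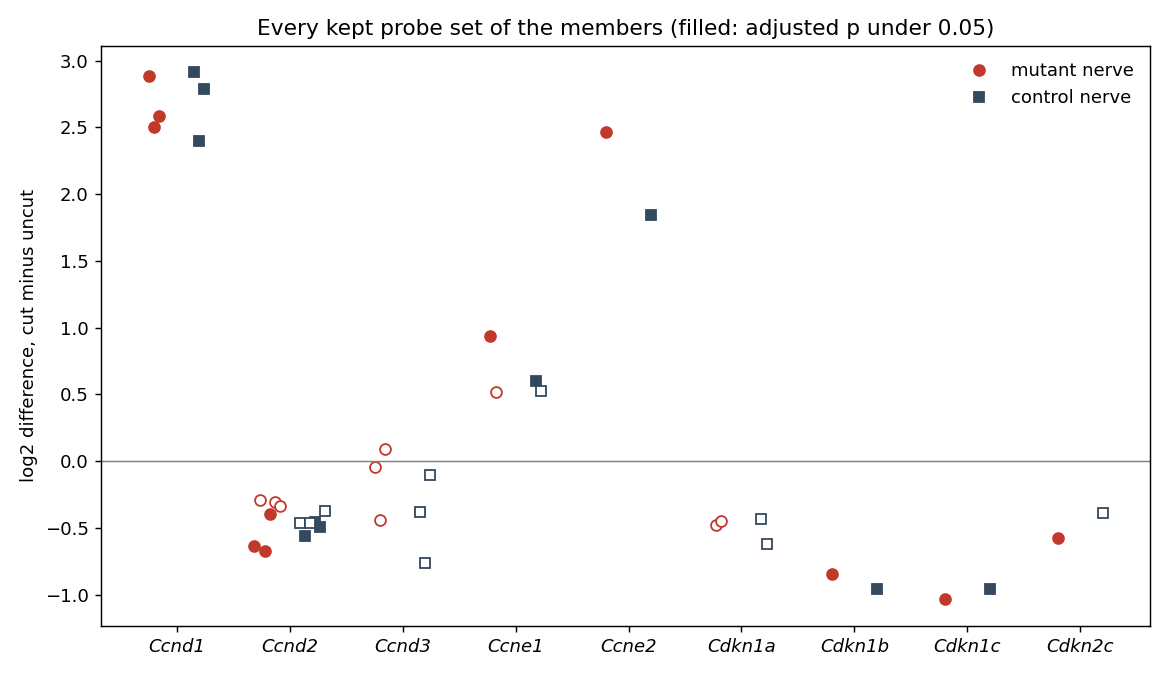
Log2 differences (y axis), cut minus uncut, of the 20 kept member probe sets by gene (x axis), as circles for mutant and squares for control nerve; filled symbols passed an adjusted p of 0.05 in the fit over 20943 probe sets. The 3 probe sets of Ccnd1 lie together between 2.40 and 2.91, the 6 of Ccnd2 all lie below 0, and 1 of 2 for Ccne1 is filled in each genotype.

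Cdkn1b encodes p27, which binds and inhibits cyclin E-CDK2 and is removed by the SCF ubiquitin ligase with SKP2 and CKS1 as cells leave G1. Its values were 9.91 and 9.90 in mutant cut, 10.06 and 10.32 in control cut, 10.67 and 10.82 in mutant uncut and 10.86 and 11.44 in control uncut nerve. Every cut array lay below every uncut array. Cdkn1b was 1.79-fold lower in cut than in uncut nerve of the mutant (log2 difference -0.84, SE 0.19, adjusted p = 0.011) and 1.94-fold lower in the control (-0.96, SE 0.19, adjusted p = 0.00562). Both mutant arrays also lay below both control arrays within each state, by -0.29 in cut (95% interval -0.72 to 0.15, adjusted p = 0.832) and -0.40 in uncut nerve (-0.84 to 0.038, adjusted p = 1), and neither difference passed. The call in mutant nerve was lost without mutant cut replicate 2 (-0.84, adjusted p = 0.0504) or mutant uncut replicate 2 (-0.77, adjusted p = 0.062). Its second probe set was too dim to be kept.

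Cdkn1c encodes p57, a CIP/KIP inhibitor of imprinted expression that marks cells leaving the cycle. It read 9.17 and 8.84 in mutant cut, 9.28 and 8.80 in control cut, 10.19 and 9.89 in mutant uncut and 10.28 and 9.71 in control uncut nerve. Cut and uncut arrays did not overlap, whereas mutant and control arrays did in both states. The gene fell after the cut 2.05-fold in mutant nerve (log2 difference -1.03, SE 0.24, adjusted p = 0.0128) and 1.94-fold in control nerve (-0.95, SE 0.24, adjusted p = 0.0157). The mutant call was lost without mutant cut replicate 2 (-0.87, adjusted p = 0.0751) or mutant uncut replicate 1 (-0.88, adjusted p = 0.0695). The control call needed control cut replicate 2 (-0.71 and adjusted p = 0.0913 when it was left out) and control uncut replicate 1 (-0.67 and adjusted p = 0.0922).

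Cdkn1a encodes p21, the CIP/KIP inhibitor that p53 induces after DNA damage. Its values were 10.76 and 11.37 in mutant cut, 10.49 and 11.33 in control cut, 11.32 and 11.70 in mutant uncut and 11.50 and 11.57 in control uncut nerve. Replicate 2 was higher than replicate 1 by over 0.6 in both cut groups, and the mutant cut and mutant uncut arrays overlapped. The differences after the cut, -0.45 in mutant nerve (SE 0.30, adjusted p = 0.277) and -0.62 in control nerve (SE 0.30, adjusted p = 0.132), did not pass, and a second probe set gave -0.48 and -0.44. The 6 markers of denervated muscle, from Myog to Ankrd1, had summed log2 values of 53.9 and 58.7 in mutant cut and 49.5 and 59.5 in control cut nerve, with the higher sum in the replicate of higher Cdkn1a, beside 35.1 to 35.6 in mutant uncut and 35.2 to 36.1 in control uncut nerve. The part of muscle RNA in the Cdkn1a values was not tested. Without both cut arrays of higher muscle sum, a setting chosen after seeing the data, Cdkn1a differed by -0.75 in mutant and -1.04 in control nerve. These were also the cut arrays of higher Cdkn1a, so a larger fall without them was fixed in advance and tells nothing about muscle. The setting leaves 1 array in each cut group. Leaving out control cut replicate 2 alone gave the same -1.04 in control nerve.

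Cdkn2c encodes p18, an INK4 inhibitor of CDK4 and CDK6. It read 10.32 and 10.01 in mutant cut, 10.34 and 10.02 in control cut, 10.75 and 10.73 in mutant uncut and 10.52 and 10.62 in control uncut nerve. Cut arrays lay below uncut arrays in both genotypes. Cdkn2c fell in mutant nerve (log2 difference -0.58, SE 0.14, adjusted p = 0.0176), and in control nerve it differed by -0.39 (SE 0.14, adjusted p = 0.0654). These values do not show a difference between the genotypes, since the injury difference was -0.19 in mutant minus control (95% interval -0.66 to 0.29, adjusted p = 0.997). The mutant call was lost without mutant cut replicate 2 (-0.43), mutant uncut replicate 1 (-0.57) or mutant uncut replicate 2 (-0.59). Without control cut replicate 1 the control difference was -0.55. That was the higher of the control cut arrays, so a larger fall without it was fixed in advance. Each of these fits leaves 1 array in a group.

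Cdkn2a, the locus of the INK4 inhibitor p16 and of ARF, which holds back the p53 ligase MDM2, is known for its rise in senescent cells. Its 1 probe set read 4.91 and 4.72 in mutant cut, 4.80 and 5.07 in control cut, 4.57 and 4.70 in mutant uncut and 4.80 and 4.84 in control uncut nerve. All 8 values lay below the array median, near the 25th percentile of the arrays, which was 4.95 to 5.01. In a fit with no signal filter the differences after the cut were 0.19 in mutant (adjusted p = 0.338) and 0.11 in control nerve (adjusted p = 0.574). The 95% intervals were -0.10 to 0.47 in mutant and -0.17 to 0.40 in control nerve, on a scale that RMA narrows for dim probe sets.

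Between the genotypes no member passed the test in either state of the nerve. In cut nerve 0 of 9 members were called by limma, beside 1.09% of all genes, with 1 member and 1041 of 12093 genes at an unadjusted p under 0.05, and their median difference was 0.058, beside -0.012 over all genes. The widest intervals there were those of Cdkn1a, at a fold of 0.689 to 1.79 in mutant over control, and Ccne2, at 0.900 to 1.95, while Ccnd1 had the fold interval 0.837 to 1.25. In uncut nerve 0 of 9 members were called, beside 0% of all genes, with 0 members and 322 of 12093 genes at an unadjusted p under 0.05. The injury difference itself was compared between the genotypes in the same fit: 0 of 9 members were called, beside 0.165% of all genes, and 0 members reached an unadjusted p under 0.05, beside 731 of 12093 genes. The log2 values of that difference lay between -0.19 for Cdkn2c and 0.62 for Ccne2. Of the 20 member probe sets tested as units 0 passed between the genotypes, and the lowest adjusted p was 0.496 in cut and 1 in uncut nerve. These misses do not show that the genotypes were alike.

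A further list held 8 genes: the kinases Cdk2, Cdk4, Cdk6 and Cdk7, the INK4 genes Cdkn2b and Cdkn2d, and Ccnh and Mnat1. Of these, 5 rose in mutant and 4 in control nerve and 0 fell, with medians of 0.53 and 0.54. At an unadjusted p under 0.05 in limma 0 were lower as well. Cdk7, Ccnh and Mnat1 did not pass in either genotype. Over all genes 18.1% were called higher in mutant and 22.8% in control nerve, and 17.8% and 17.5% lower. Cdk4, the kinase of D cyclins, rose by 0.77 in mutant (adjusted p = 0.00551) and 0.88 in control nerve (adjusted p = 0.00265). Cdk6 rose by 0.70 and 0.82, and Cdk2, the kinase of E cyclins, by 0.71 and 0.74. The INK4 genes of this list did not fall as Cdkn2c did: Cdkn2b, the gene of p15, rose by 0.39 in mutant (adjusted p = 0.0411) and 0.72 in control nerve (adjusted p = 0.00288). Cdkn2d, the gene of p19, rose by 0.66 in mutant nerve (adjusted p = 0.0123) and differed by 0.36 in control nerve (adjusted p = 0.098).

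Downstream of the kinases stand RB and the E2F factors, of which 13 genes were tested. In mutant nerve 6 rose and 1 fell (median 0.34), and in control nerve 7 rose and 1 fell (median 0.35). The repressive factors E2f7 (1.99 in mutant, 1.79 in control nerve) and E2f8 (1.75 and 1.44) rose most, followed by Rbl1, the gene of the RB relative p107 (1.21 and 1.09), and all 3 had adjusted p-values of 0.000252 or lower. The 1 gene that fell was Tfdp2, a partner of E2F factors, by 0.41 in mutant and 0.48 in control nerve. Of 12 genes of G1/S activation and protein turnover 3 rose and 0 fell in each genotype. The share that rose was near that of all genes (18.1% in mutant, 22.8% in control nerve). In each genotype 1 of the 12 was lower at an unadjusted limma p under 0.05, and the medians were 0.21 and 0.27. A pair of the 12 act on p27: Skp2 rose by 1.13 in mutant and 0.87 in control nerve, and Cks1b by 1.19 and 1.25. Cdc25a, the phosphatase that activates CDK2, was the other called gene in mutant nerve (0.51, adjusted p = 0.0264), and Myc in control nerve (0.81, adjusted p = 0.00593).

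All 13 tested genes of S phase, mitosis and proliferation rose in both genotypes, with medians of 3.36 in mutant and 2.98 in control nerve. Of all genes, 18.1% were called higher in mutant and 22.8% in control nerve, and 17.8% and 17.5% lower. The limit given further on for genes below the array median on all uncut arrays holds for this list too. Rrm2, a subunit of ribonucleotide reductase, rose by 4.51 in mutant and 3.77 in control nerve, and the proliferation marker Mki67 by 4.11 and 3.96. Of 16 listed genes of the p53 pathway 14 were tested, without Trp53 and Bax. In mutant nerve 7 of the 14 rose, 2 fell and 5 did not pass (median 0.43). In control nerve 6 rose, 2 fell and 6 did not pass (median 0.29). Eda2r, a receptor gene induced by p53, rose by 4.46 in mutant and 4.21 in control nerve, and the stress gene Gadd45a by 3.43 and 4.08. Perp fell by 1.33 in mutant and 1.05 in control nerve, and Sesn1 by 1.09 and 1.57. Cdkn1a, a target of the same factor, did not move with those that rose. Between the genotypes in cut nerve 0 genes of these 5 lists were called by limma; at an unadjusted p under 0.05 there were 4 of 13 genes of S phase and mitosis, 2 of 14 of the p53 pathway and 1 of 13 of RB and E2F, all higher in the mutant, and 0 in the other two lists, beside 1041 of 12093 genes in either direction. The medians were -0.0072 for the list of kinases and INK4 genes, 0.023 for RB and E2F, -0.0073 for turnover, 0.29 for S phase and mitosis and 0.14 for the p53 pathway.

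**Figure D4:**
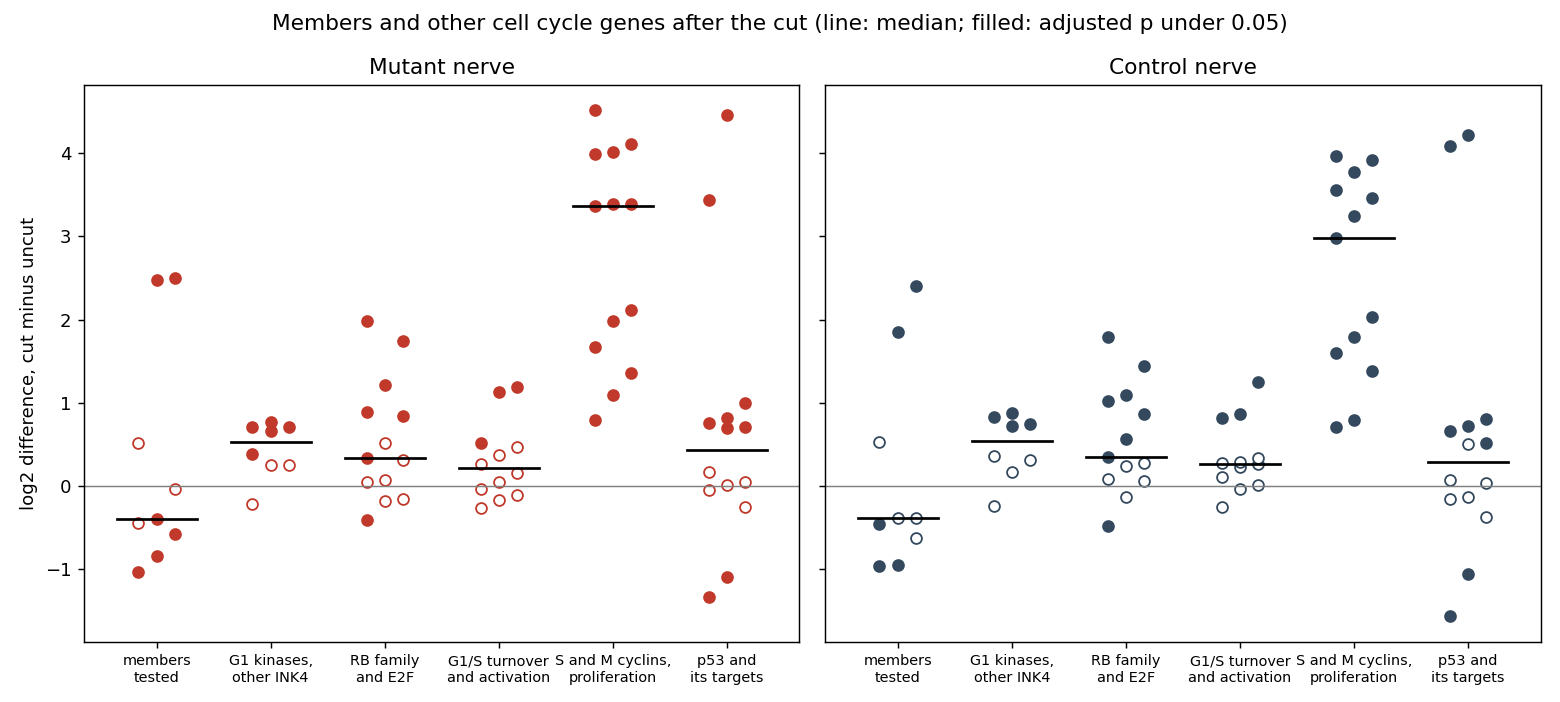
Log2 differences (y axis), cut minus uncut, of the 9 tested members and of the genes of 5 related lists (x axis), in mutant nerve on the left and control nerve on the right; each point is a gene, lines are medians, and filled points passed an adjusted p of 0.05. Every gene of S phase and mitosis lies above 0 and is filled, and the medians of the members lie below 0.

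The mixture of cells changed with the cut as well. Beside the counts below stand 18.1% of all genes called higher in mutant and 22.8% in control nerve, and 17.8% and 17.5% lower. All 6 macrophage markers rose in both genotypes, and their summed log2 values were 69.7 to 71.2 in mutant cut, 70.3 to 70.7 in control cut, 56.5 to 58.7 in mutant uncut and 56.5 to 58.1 in control uncut nerve. Of 5 skeletal muscle genes 5 rose in mutant and 4 in control nerve, and of 6 denervated muscle genes 5 and 4. The denervated muscle genes and the tested lymphocyte genes lay on average below the array median in uncut nerve. A gene of any list that lies below it on all uncut arrays passed the filter only through its cut arrays. The rise of such a gene adds nothing to a count as support. Endothelial markers fell for 3 of 5 in mutant and 1 of 5 in control nerve, mural markers for 2 of 4 in each, and of 5 fibroblast markers 1 rose (Col1a1) and 1 fell (Dpt) in each. Of the 3 Schwann cell markers S100b fell by 1.04 in mutant and 0.92 in control nerve, and Erbb3 rose in mutant nerve by 0.59. Of 3 tested lymphocyte markers Gzmb and Klrd1 rose in both genotypes, and in cut nerve the mutant held less Gzmb (log2 difference -2.25, adjusted p = 0.0236). The 6 tested glandular epithelium genes had summed log2 values of 44.0 and 55.1 in mutant cut, 57.1 and 50.4 in control cut, 57.9 and 56.8 in mutant uncut and 36.3 and 37.3 in control uncut nerve. Of these, Krt18 rose in both genotypes, Krt8 rose in control nerve and Krt19 fell in mutant nerve. The part of these cells in the values of the cyclins and inhibitors was not tested beyond leaving out cut arrays.

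Over the 8 arrays, the 2 genes whose values ran most like those of each member were named by Pearson's r over all tested genes, as a description in which cut and uncut nerve form separate clusters. For Ccnd1 these were C3ar1, a complement receptor gene (r = 0.999), and Cenpa, the centromere histone gene (r = 0.998). For Ccnd2 they were Cbx6 (0.994) and Denn2b (0.993), and for Ccne2 Jmjd1c (0.996) and Slc7a8 (0.994). Cdkn1b ran most like Maf (0.981) and C230091D08Rik (0.979), Cdkn1c like Epn2 (0.995) and Amy1 (0.993), and Cdkn2c like Smim1 (0.988) and Tst (0.987). The members that did not pass in the gene fit of either genotype had lower values: Ccnd3 with Tef (0.954) and Zfp61 (0.954), Ccne1 with Gpr137c (0.976) and Plagl2 (0.972), and Cdkn1a with Frs3 (0.967) and Acsl3 (0.957).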

How the data were processed

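The values deposited by the authors are on the log2 scale and cover 45101 probe sets on each array. The submitters' processing notes name RMA (background correction, quantile normalisation and probe summary) and the package affy, without versions. No detection call, scan date or genome build was used. RMA can shrink changes of dim genes and hides any shift common to a whole array. Symbols came from the platform annotation (34945 probe sets with 1 symbol, 932 with several and 9211 with none); 64 control probe sets were left out. Symbols were checked by gene number against the RefSeq gene table for 34741 of them, and 0 changed.

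With R 4.3.3 and limma 3.58.1 the 8 arrays were fitted together with 1 mean for each group (4 residual degrees of freedom), with 5 contrasts and Benjamini-Hochberg adjustment over 12093 genes, two-sided; intervals are 95% moderated intervals. The fit was run on simulated data in which noise was independent between arrays. No effect shared by a replicate number was simulated, so that run does not cover such an effect. With 2 arrays a group the number of arrays limits the precision, and pools of mice are the replicates.

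The members and gene lists were chosen with earlier results of these data known. Named genes are all members, Jun, up to 3 called genes of largest difference in each list and the 2 genes most like each member. Cdkn2b, Cdkn2d, Cdk7, Ccnh, Mnat1 and Tfdp2 were named after their values were seen. Alternatives were other filters, probe set rules, normalisations, variance models, a replicate block, fits to the compared arrays alone and leaving out single arrays; 2 further array exclusions were chosen after seeing the data.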

Additional observations from a re-analysis of the deposited data

How the results depend on the processing

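Ccnd1 rose in both genotypes under all 19 alternatives run, and Ccne2 under the 18 in which it was measured; under the filter at the 75th percentile Ccne2 was not measured. In control nerve Cdkn1b fell under all 19. The other calls were lost under some settings: Ccnd2 kept its call in 13 of 19 in mutant and 16 of 19 in control nerve, Cdkn1c in 14 and 15, Cdkn1b in 14 and Cdkn2c in 13 in mutant nerve, with adjusted p-values of up to 0.144. Ccne1, Cdkn1a and, in control nerve, Cdkn2c and Ccnd3 gained a call under others. No member passed between the genotypes, or in the difference of the injury effects, under any alternative. With the unmoderated statistic 2 members passed in mutant nerve; the cause was not tested.

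The replicate numbers are not taken as pairs, since the sources used here do not tie equal numbers to the same mice. The correlation of replicate differences between groups lay between 0.0226 and 0.340. Only cut and uncut nerve of 1 genotype could share mice, and there it was 0.153 in mutant and 0.179 in control nerve. The lowest value was between control cut and mutant uncut nerve. Whether the pools share mice was not tested. In the fit with the replicate block 6 members passed in mutant and 8 in control nerve, where Ccnd3 (adjusted p = 0.0135), Cdkn1a (0.0262) and Cdkn2c (0.0449) came in addition, and 4 genes differed between genotypes in uncut nerve. Replicate 1 exceeded replicate 2 in all 4 groups for Ccnd3 and Cdkn1c, and in 0 for Ccnd1 and Cdkn1a.

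Counts over all genes moved as follows; the cause was not tested unless fewer arrays or more features give it. Between genotypes in cut nerve (main value 132), 0 genes passed with the unmoderated statistic, 31 with only the 4 arrays compared, 51 without both cut arrays of higher denervated muscle signal and 55 without both of higher glandular signal. In uncut nerve (main value 0) 1 passed with probe sets averaged per gene, 1 with probe sets as units, 9 with only the 4 arrays compared and 9 in each of the 2 added exclusions. For the cut in mutant nerve 6660 probe sets passed as units, and 2863 genes with the unmoderated statistic and 2782 in each added exclusion; in control nerve 7555 probe sets passed as units. For the difference of injury effects (main value 20) 33 passed with no filter, 11 with the filter at the 75th percentile, 33 with the mean of probe sets, 31 with a trended and robust variance, 0 with the unmoderated statistic and 34 without both cut arrays of higher denervated muscle signal. With each array left out in turn, the counts ran over 13 to 111 between genotypes in cut nerve, 0 to 2 in uncut nerve, 2734 to 4260 for the cut in mutant nerve and 0 to 45 for the difference of injury effects, and 3 to 6 members passed in mutant and 4 to 6 in control nerve.

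Directions turned only in differences that did not pass. With probe sets averaged per gene, mutant minus control in uncut nerve was 0.068 for Ccnd1 and -0.16 for Ccnd3, and the difference of injury effects was -0.046 for Ccnd1 and 0.17 for Ccne1. Without both cut arrays of higher denervated muscle signal the difference of injury effects of Ccne1 was 0.12, and the cut difference of Ccnd3 in mutant nerve was 0.029, as it was without both of higher glandular signal. In the second exclusion mutant minus control in cut nerve was -0.066 for Ccnd1, -0.57 for Cdkn1a, 0.37 for Cdkn1c and 0.30 for Cdkn2c. The difference of injury effects there was -0.00046 for Ccnd1, 0.52 for Ccne1, -0.55 for Cdkn1a, -0.0090 for Cdkn1b, 0.33 for Cdkn1c and 0.13 for Cdkn2c. With each array left out, mutant minus control in cut nerve spanned 0 for Ccnd1 (-0.032 to 0.10), Ccne1 (-0.27 to 0.38), Cdkn1a (-0.27 to 0.57), Cdkn1c (-0.28 to 0.20) and Cdkn2c (-0.18 to 0.15). In uncut nerve it spanned 0 for Ccnd1 (-0.22 to 0.091), Ccnd3 (-0.10 to 0.19), Ccne1 (-0.11 to 0.24), Ccne2 (-0.55 to 0.12), Cdkn1a (-0.21 to 0.17) and Cdkn1c (-0.24 to 0.33). The cut difference of Ccnd3 in mutant nerve ran over -0.11 to 0.033. The difference of injury effects spanned 0 for Ccnd1 (-0.056 to 0.26), Ccnd2 (-0.037 to 0.16), Ccne1 (-0.33 to 0.32), Cdkn1a (-0.24 to 0.59), Cdkn1b (-0.18 to 0.41) and Cdkn1c (-0.37 to 0.20). Where 1 array of a group is left, it is assumed to vary like the other groups. Signal limits Cdkn2a on all arrays and Ccne2 in uncut nerve.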
